A study of Saccharomyces cerevisiae with 16 samples.

Results

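Genome-wide transcript levels of the yeast Saccharomyces cerevisiae 300 s after a glucose pulse were compared with those 120 s after it, on 3 arrays at each time, which are 6 of the 16 arrays of the series. The arrays were taken by their labelled time, and pulses 1, 2 and 3 each gave 1 array at both times. All of the arrays came from strain CEN.PK 113-7D, a prototrophic laboratory strain, grown in an aerobic, carbon-limited chemostat on mineral medium fed with glucose and a little ethanol, diluted at 0.05 per hour and held at pH 5 and 30 degrees C. In the 300 s and 120 s groups alike, glucose solution had been injected to bring residual glucose up to about 5.56 mM (1 g per litre). No group carried a mutation, and no unpulsed culture was sampled at 300 s or 120 s, so the comparison is between 2 times after the same pulse and not between pulsed and unpulsed cells. The labels state that the replicated time points came from at least 2 independently grown cultures, so the 3 arrays of a time need not be 3 cultures. The p-values come from an unpaired fit that pools the spread between arrays over the 6 replicated times. A single 210 s array, from pulse 1, lies between the times compared. It is shown as an intermediate value and entered no test. The question set by the design is which transcripts moved between 120 s and 300 s, and by how much.

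A chemostat limited for carbon keeps yeast in a slow, respiring state in which glucose is scarce. When glucose returns, the Ras and protein kinase A pathway and the TORC1 kinase are known to promote the genes of ribosome synthesis. The Snf1 kinase, which is needed for growth on other carbon sources, is switched off, and genes for respiration, gluconeogenesis, fatty acid oxidation and storage carbohydrate are repressed. In bulk RNA, fewer cells of a kind that holds a transcript and less of that transcript per cell cannot be told apart.

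Signals are given on a scale on which the trimmed mean of every array is 150, with a floor of 12 under which no value is read, and 3 signals in a row are those of pulses 1, 2 and 3. Changes are log2 differences, 300 s minus 120 s, with the standard error of the limma fit, and adjusted p-values are Benjamini-Hochberg values over all 5410 genes tested. As every array is scaled to the same mean, a change of total messenger RNA would not be seen. The deposited trimmed mean ran from 82.8 to 239 at 300 s and from 112 to 222 at 120 s. The median absolute log2 difference per gene was 0.206 to 0.270 between pairs of 300 s arrays and 0.157 to 0.177 between pairs of 120 s arrays. Between 2.74% and 4.55% of tested genes lay at the floor on a 300 s array and between 3.48% and 4.71% on a 120 s array. The 3′ to 5′ signal ratio of the YFL039C control (the actin gene), a measure of RNA quality, was 2.35 to 2.55 at 300 s and 2.10 to 2.53 at 120 s. It was higher on the 330 s arrays (4.52 and 4.07) and the steady-state array of pulse 1 (3.39), which enter the fit and its standard errors. The ratio of the YER022w control was 2.92 to 4.17 at 300 s and 2.84 to 4.53 at 120 s, and 11.6 on the steady-state array of pulse 2.

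Between 120 s and 300 s, 1195 of 5410 genes changed (22.1%), 612 of them upward (11.3%) and 583 downward (10.8%). The genes that rose did so by a median of 1.80-fold and those that fell by a median of 1.61-fold. At least a 2-fold change was reached by 210 of the risers and 122 of the fallers, and at least a 4-fold change by 21 and 15. All 3 arrays at 300 s lay above all 3 at 120 s for 966 genes (17.9%) and below them for 1189 genes (22%), together 39.8%. Of the genes called, 607 risers and 574 fallers were separated in this way, which the call on the same arrays favours. The median over all tested genes was -0.05. As every array was scaled to the same mean, this centre is held in place largely by the scaling.

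**Figure D1:**
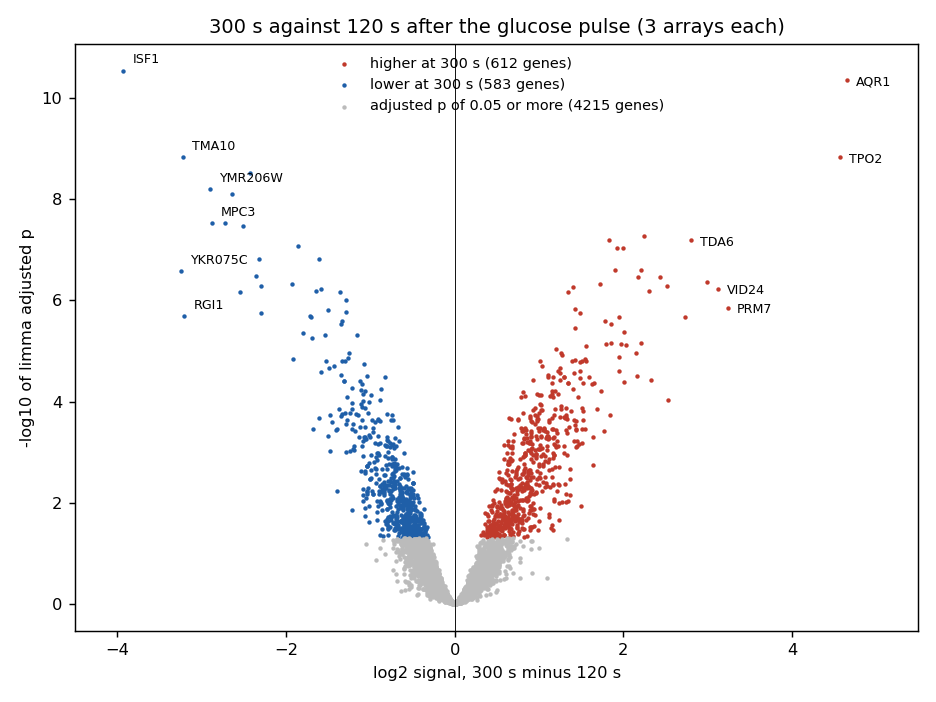
Each point is 1 of 5410 genes; the horizontal axis is the log2 signal at 300 s minus that at 120 s and the vertical axis is minus log10 of the limma adjusted p. The 612 genes that rose are red, the 583 that fell are blue and the others are grey, and AQR1 and TPO2 on the right and ISF1 on the left lie farthest out.

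The pulses gave changes of like size for these genes. Among risers the median change was 0.71 in pulse 1, 0.90 in pulse 2 and 0.93 in pulse 3, and all 612 rose in each pulse. Among fallers the median was -0.64, -0.68 and -0.75, and 581 of 583 fell in each pulse. As the genes were called on these same arrays, like signs are favoured by the choice and are no separate test. Over all 5410 tested genes, 3085 had the same sign in every pulse. Per the file headers, the 300 s and 120 s arrays were hybridized or scanned on the same day as each other in pulses 2 and 3 but on different days in pulse 1. The values of pulses 2 and 3 are therefore within-day values. Without both pulse 1 arrays, an alternative chosen after the data were seen, 509 genes rose and 405 fell.

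The largest fitted increases were those of AQR1 and TPO2. AQR1 encodes an exporter of drugs and amino acids in the plasma membrane. Its signal was 234, 347 and 338 at 300 s, against 12, 12 and 12 at 120 s. All of its 120 s arrays lay at the floor, so it was at least 25.2-fold higher at 300 s (log2 change 4.65 ± 0.17, adjusted p = 4.56e-11). TPO2, an exporter of polyamines, had signals of 693, 929 and 709 at 300 s, against 35.6, 32.4 and 29.7 at 120 s, a 23.7-fold rise (log2 change 4.57 ± 0.22, adjusted p = 1.50e-09). Which of these 2 genes is first depends on the floor: with the floor at 2 times its value the log2 change was 3.65 for AQR1 and 4.57 for TPO2. PRM7, named for its regulation by pheromone, had 208, 440.2 and 345 at 300 s, against 22.9, 44.5 and 36.6 at 120 s (log2 change 3.24 ± 0.29, adjusted p = 1.40e-06). Only genes whose 300 s and 120 s arrays did not overlap were eligible for the 12 largest increases. In AQR1, TPO2 and PRM7 the lowest array at 300 s was that of pulse 1. VID24, the receptor by which the GID ubiquitin ligase recognises gluconeogenic enzymes, had 312, 501 and 502 at 300 s, against 38.0, 63.2 and 49.3 at 120 s (log2 change 3.12 ± 0.26, adjusted p = 5.90e-07). MCH5, a riboflavin transporter, had 223, 449 and 483 at 300 s, against 40.8, 48.0 and 48.4 at 120 s (log2 change 3.00 ± 0.24, adjusted p = 4.46e-07). PDE2, the high-affinity cyclic AMP phosphodiesterase, had 308, 393 and 357 at 300 s, against 51.0, 66.2 and 67.6 at 120 s (log2 change 2.52 ± 0.21, adjusted p = 5.35e-07). For VID24, MCH5 and PDE2 every 300 s array stood at more than 4 times the 120 s array of the same pulse. The other genes among the 12 with the largest increases were RRN11, described below, and YBR238C, TDA6, YGR079W, YNL162W-A and YKL068W-A. Their changes ran from 2.31 in YKL068W-A to 2.81 in TDA6. TDA6, YBR238C and YNL162W-A were at or near the floor at 120 s, and with the floor at 2 times its value their changes were 1.81, 1.79 and 1.42.

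The largest decrease was that of ISF1, a gene known for its part in respiratory growth. Its signal was 35.1, 31.9 and 33.0 at 300 s, against 463, 555 and 508 at 120 s, a 15.2-fold fall (log2 change -3.93 ± 0.13, adjusted p = 2.94e-11). TMA10, whose product is related to the ATP synthase regulators Stf1 and Stf2, had 166, 166 and 166 at 300 s, against 1576, 1477 and 1584 at 120 s (log2 change -3.22 ± 0.15, adjusted p = 1.50e-09). In both genes the arrays of a time lay close together, and the 300 s arrays lay far below the 120 s arrays. MPC3, the subunit of the mitochondrial pyruvate carrier that respiring cells use, had 219, 346 and 299 at 300 s, against 2135, 1968 and 2153 at 120 s (log2 change -2.88 ± 0.18, adjusted p = 3.01e-08). MTH1, a co-repressor of the hexose transporter genes that is degraded when glucose is sensed, had 44.0, 31.3 and 29.2 at 300 s, against 232, 242 and 207 at 120 s (log2 change -2.72 ± 0.17, adjusted p = 3.01e-08). HAP4, the activating subunit of the HAP complex that drives respiratory genes, had 50.7, 53.2 and 49.3 at 300 s, against 366, 336 and 264 at 120 s (log2 change -2.64 ± 0.15, adjusted p = 8.00e-09). The 12 largest decreases were likewise taken only from genes whose arrays did not overlap, so their separation was set by the choice. RGI1 and RGI2, paired genes named for induction in respiratory growth, fell by 3.21 and 2.35 on the log2 scale, RGI1 with the 300 s arrays of pulses 2 and 3 at the floor (log2 change -2.45 with the floor at 2 times its value). RTC3, which responds to stress, had 42.2, 39.2 and 35.3 at 300 s, against 199.6, 212 and 212 at 120 s, and PRR2, a protein kinase, had 30.1, 23.6 and 24.3 at 300 s, against 134, 165 and 155 at 120 s. The remaining genes of the 12 were YKR075C (log2 change -3.24 ± 0.25), YMR206W (-2.90 ± 0.16) and YJR115W (-2.51 ± 0.16), which have no role named here. YMR206W had 46.3, 37.4 and 47.9 at 300 s, against 359, 316 and 307 at 120 s.

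**Figure D2:**
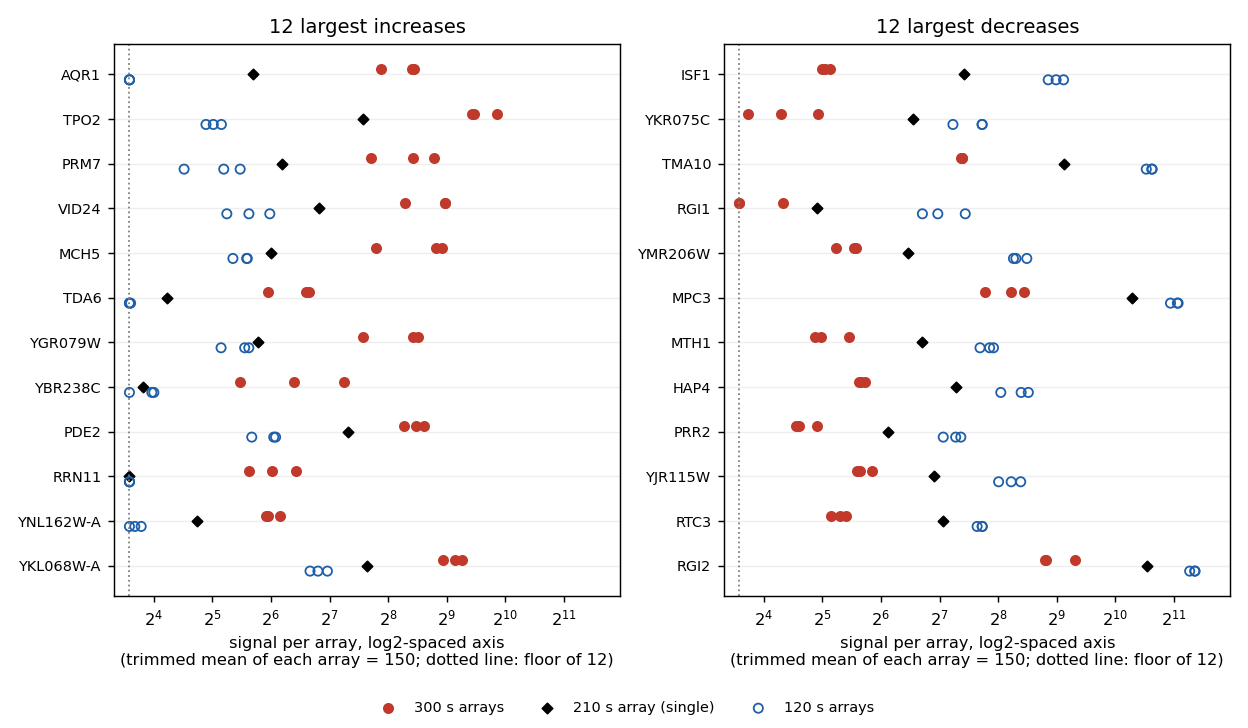
Signals on single arrays of the 12 genes with the largest increases (left) and the 12 with the largest decreases (right), on a log2-spaced axis with the floor of 12 dotted. Filled circles are the 300 s arrays, open circles the 120 s arrays and diamonds the single 210 s array; genes were eligible only if the filled and open circles did not overlap.

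Factors that assemble ribosomes made up the largest block of risers among the lists examined. Of 71 large-subunit assembly factors, 50 rose and 1 fell, with a median change of 0.73, and of 56 members of the small-subunit processome, which cuts and folds the early ribosomal RNA, 38 rose and none fell, with a median of 0.72. Over all tested genes 11.3% rose, and the median was -0.05. Of 25 core proteins of small nucleolar ribonucleoproteins and other nucleolar proteins, 15 rose (median 0.61). The exosome and its helpers, which trim and degrade nuclear RNA, had 10 risers of 20 (median 0.53). Above 0 were 54 processome members and 67 large-subunit factors. The processome list ran from -0.40 to 1.80 and the large-subunit list from -0.61 to 1.56, and its single faller was RSA1 (-0.61), named after its value was seen.

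Within the processome UTP5, a subunit of the complex that first binds the nascent transcript, had signals of 192, 254 and 241 at 300 s, against 72.9, 65.7 and 58.4 at 120 s (log2 change 1.80 ± 0.19, adjusted p = 7.16e-06). LCP5 had 182, 265 and 262 at 300 s, against 77.9, 72.7 and 93.7 at 120 s (log2 change 1.53 ± 0.19, adjusted p = 4.32e-05), and UTP18 had 301, 379 and 421 at 300 s, against 163, 119 and 159 at 120 s (log2 change 1.32 ± 0.20, adjusted p = 1.88e-04). FAL1, an RNA helicase, changed by 1.37 ± 0.33, but with both pulse 1 arrays left out its adjusted p was 0.0822. For UTP5, LCP5 and UTP18 the pulse 1 array was the lowest at 300 s and still above all 120 s arrays. Among large-subunit factors, the RNA helicase DBP2 had 878, 1014 and 823 at 300 s, against 391, 287 and 253 at 120 s (log2 change 1.56 ± 0.18, adjusted p = 1.57e-05), and the GTPase NOG2 had 563, 883 and 808 at 300 s, against 292, 284 and 256 at 120 s (log2 change 1.42 ± 0.17, adjusted p = 2.76e-05). RSA4 and MAK16 changed by 1.51 ± 0.24 and 1.44 ± 0.22. In all of these the 2 groups were separated, which the call on the same arrays favours. Of the nucleolar proteins NOP1, the methyltransferase of box C/D particles (fibrillarin in other species), had 557, 597 and 730.5 at 300 s, against 131, 310.0 and 346 at 120 s (log2 change 1.37 ± 0.28, adjusted p = 0.00211). Its 120 s array of pulse 1 was the lowest of the 6. NSR1, yeast nucleolin, had 1209, 1482 and 1336 at 300 s, against 557, 663 and 470.0 at 120 s (log2 change 1.26 ± 0.14, adjusted p = 1.10e-05), and RNT1, the RNase III that cuts ribosomal RNA precursors, had 123, 155 and 217 at 300 s, against 62.6, 50.1 and 41.8 at 120 s (log2 change 1.66 ± 0.21, adjusted p = 4.25e-05). SHQ1, an assembly chaperone of H/ACA particles, changed by 1.05 ± 0.21 on low signals. It had 35.4, 36.7 and 36.6 at 300 s, against 20.6, 18.5 and 14.0 at 120 s. With the floor at 2 times its value the change was 0.59. In the exosome list the core subunits RRP4, RRP42 and RRP46 changed by 1.10 ± 0.18, 1.02 ± 0.15 and 1.02 ± 0.16. AIR1, of the TRAMP complex that marks RNA for the exosome, stood at 24.4, 31.1 and 30.6 at 300 s and at the floor on every 120 s array, so it was at least 2.38-fold higher; with the floor set to 2 times its value its adjusted p was 0.194.

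The machinery that transcribes ribosomal and transfer RNA rose in part. In a list of 35 genes for RNA polymerases I and III and their factors, 14 rose and none fell (median 0.42). RRN11 and RRN7 are subunits of core factor, which brings polymerase I to the ribosomal DNA. RRN11 had 49.2, 64.8 and 85.7 at 300 s, against 12, 12 and 12 at 120 s, at least 5.41-fold higher (log2 change 2.44 ± 0.19, adjusted p = 3.42e-07), and RRN7 had 49.2, 70.2 and 72.1 at 300 s, against 17.2, 18.5 and 21.3 at 120 s (log2 change 1.74 ± 0.23, adjusted p = 6.30e-05). The polymerase III subunit RPC37 had 147, 189 and 205 at 300 s, against 64.5, 60.1 and 66.2 at 120 s (log2 change 1.49 ± 0.18, adjusted p = 3.50e-05), and the polymerase I subunit RPA12 had 225, 289 and 284 at 300 s, against 103, 116 and 99.6 at 120 s (log2 change 1.32 ± 0.21, adjusted p = 3.69e-04). At the low end of this list stood TFC8, a subunit of the factor TFIIIC, at -0.63 with an adjusted p of 0.0655, so no call was made. Of 12 RNA polymerase II subunits 5 rose, namely RPB10 (0.70 ± 0.17), RPB5 (0.62 ± 0.15), RPC10 (0.55 ± 0.13), RPO26 (0.44 ± 0.12) and RPB9 (0.42), the last of these named after its value was seen. RPO26 lost the call without the 300 s array of pulse 2 or the 120 s array of pulse 2 (adjusted p from 0.0613 to 0.0668). RPB10, RPB5, RPC10 and RPO26 are subunits that all 3 polymerases share, while RPO21 and RPB2, the 2 large subunits of polymerase II, had values of -0.42 and 0.09 and no call. The count of 5 was 3 without the 120 s array of pulse 2, 3 without the 300 s array of pulse 2 and 3 without both pulse 1 arrays.

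Of 18 tested single-copy cytosolic ribosomal protein genes, none passed in limma, and their values ran from 0.00 to 0.62 with a median of 0.08. Genes with a near-identical copy were kept out of this list, because their probe sets can bind both copies. RPS3 had 3109, 3260.3 and 4117 at 300 s, against 2907, 2773 and 3192 at 120 s and changed by 0.23 ± 0.15 (adjusted p = 0.318). RPL39 had 1073, 1602 and 1596 at 300 s, against 519, 1135 and 1271 at 120 s, and its arrays overlapped (adjusted p = 0.174). With the pulse number as a block in the 15-array fit RPL39 passed the test (log2 change 0.62, adjusted p = 0.0377), and in the 6-array fit with that block it did not (adjusted p = 0.0623). Of 34 translation factors 6 rose (17.6%, against 11.3% of all tested genes) and none fell (median 0.28). NEW1, which acts in termination and ribosome recycling, had 877, 1220.4 and 1317 at 300 s, against 516, 606 and 611 at 120 s (log2 change 0.96 ± 0.23, adjusted p = 0.00612). GCD10, a subunit of the methyltransferase that modifies initiator transfer RNA, changed by 0.86 ± 0.18, and GCN3, the alpha subunit of initiation factor 2B, by 0.63 ± 0.14. The count of 6 was 12 with hybridization day as a block and 10 with the array-number series as a block. That day was the hybridization date in the file header or, where none could be read, the scan date. In the fit the 120 s array of pulse 1 was alone on its day. The day block thus takes that array out of the comparison. The series are runs of array numbers in the sample titles, split at wider gaps, and no batch that the labels name. Among the 6 arrays compared they match the pulse number. Of 20 cytosolic transfer RNA synthetases 3 rose (15%, against 11.3% of all tested genes): KRS1 (1.15 ± 0.23), WRS1 (0.55 ± 0.14) and FRS1 (0.45 ± 0.14). That count was 1 without the 120 s array of pulse 2, 1 without the 300 s array of pulse 3 and 5 without the steady-state array of pulse 1. KRS1 had 36.8, 25.2 and 28.8 at 300 s, against 12, 12 and 17.0 at 120 s, and with the floor at 2 times its value its adjusted p was 0.149. WRS1 lost the call without the 300 s array of pulse 3 or the 120 s array of pulse 2 (adjusted p from 0.0562 to 0.0574), and FRS1 without the 300 s array of pulse 2 or 3 or the 120 s array of pulse 1 or 2 (adjusted p from 0.079 to 0.139).

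Enzymes that modify transfer RNA had 10 risers of 41 and no faller (median 0.36), and 6 risers with the pulse number as a block in the 6-array fit. TRM11, which methylates a guanosine of transfer RNA, had 231, 391.8 and 376 at 300 s, against 132, 106 and 116 at 120 s (log2 change 1.46 ± 0.20, adjusted p = 8.16e-05). TRM44 and the pseudouridine synthase PUS1 changed by 1.30 ± 0.23 and 1.20 ± 0.22. Among 21 karyopherins and other nuclear transport genes, YRB1 (0.64 ± 0.10) and GSP1 (0.58 ± 0.18), both of the Ran cycle, rose and the importin KAP122 (-0.51 ± 0.17) fell. The shares of this list, 9.52% up and 4.76% down, were below the 11.3% and 10.8% of all tested genes. GSP1 lost the call without the 300 s array of pulse 2 or 3 or the 120 s array of pulse 1, 2 or 3 (adjusted p from 0.0549 to 0.101). KAP122 lost it without the 300 s array of pulse 2 or 3, the 120 s array of pulse 1, 2 or 3 or the 60 s array of pulse 2 or 3 (adjusted p from 0.052 to 0.182), with the floor at 2 times its value (log2 change -0.10, adjusted p = 0.611) and with the pulse number as a block in the 6-array fit (adjusted p = 0.11).

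Of 26 regulators of the ribosome gene program and of TORC1, 4 rose (15.4%) and 2 fell (7.69%). These shares are near those of all tested genes, 11.3% and 10.8%. IFH1, the co-activator of ribosomal protein genes, had 133, 166 and 138 at 300 s, against 46.4, 54.5 and 44.2 at 120 s (log2 change 1.59 ± 0.20, adjusted p = 3.22e-05). SFP1, an activator of the same genes and of ribosome assembly genes, had 99.2, 103 and 119.6 at 300 s, against 67.8, 61.9 and 51.6 at 120 s (log2 change 0.83 ± 0.17, adjusted p = 0.00207). TOD6 and DOT6, related repressors of ribosome assembly genes, went opposite ways. TOD6 had 169, 208 and 167 at 300 s, against 109.5, 89.1 and 77.4 at 120 s (log2 change 0.98 ± 0.18, adjusted p = 8.52e-04), and DOT6 had 165, 145 and 109 at 300 s, against 257, 280.2 and 294 at 120 s (log2 change -1.004 ± 0.22, adjusted p = 0.00341). The other 2 called, named after their values were seen, were GTR1, a GTPase upstream of TORC1 (0.75), and CRF1, a co-repressor of ribosomal protein genes (-0.80). FHL1 and RAP1, which bind ribosomal protein promoters, had values of -0.10 and -0.17 and no call.

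**Figure D3:**
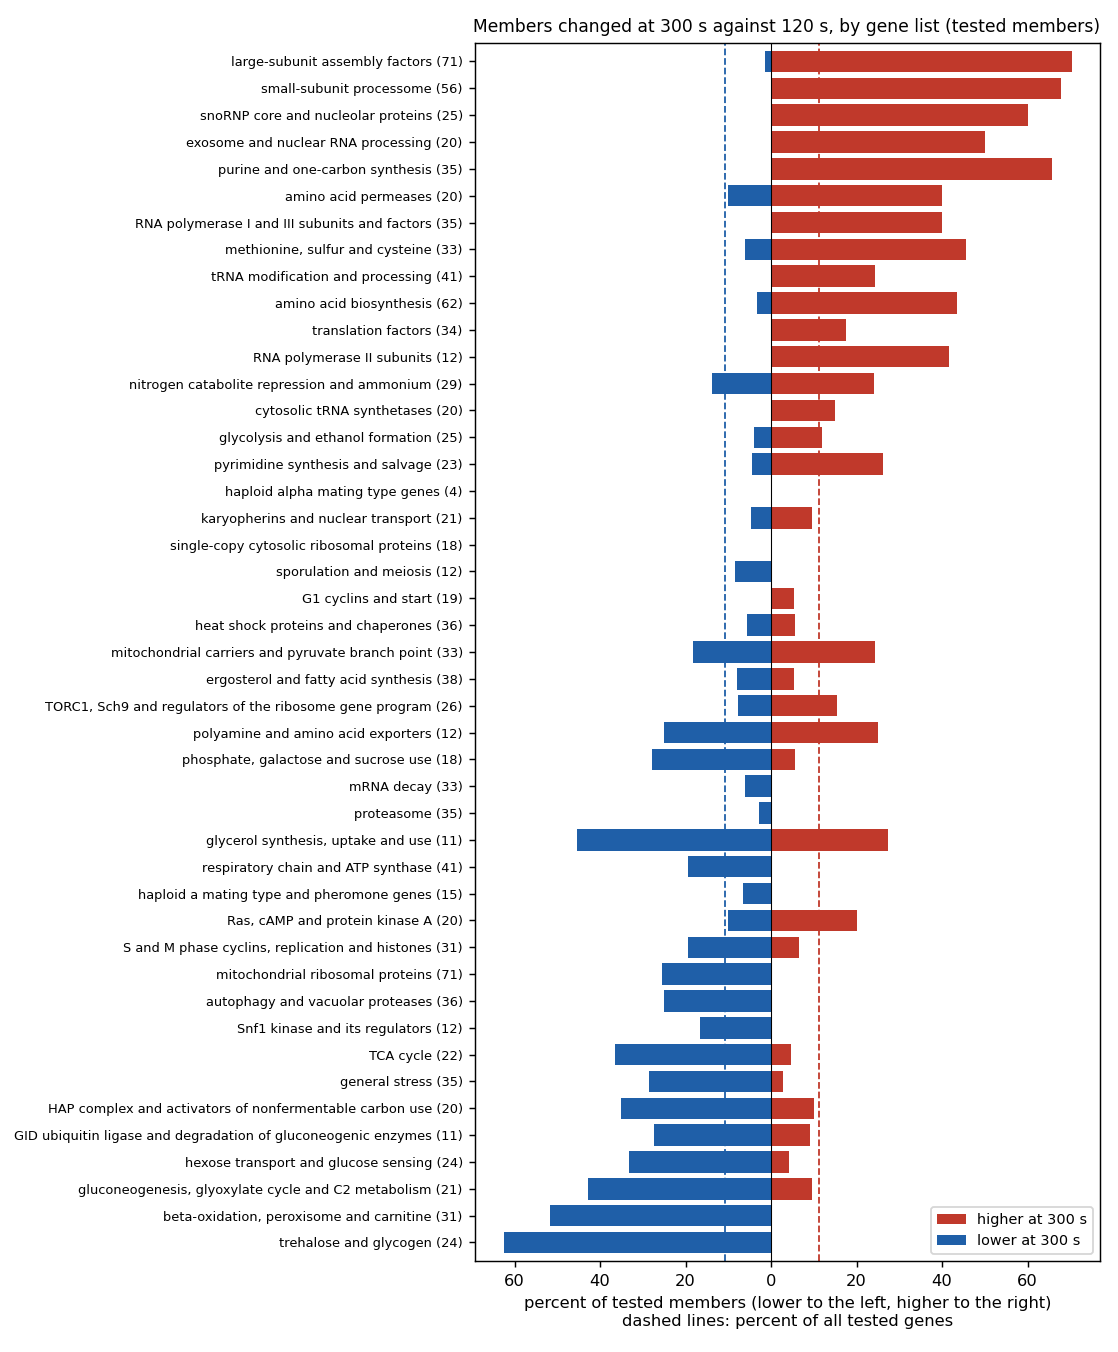
Percent of the tested members of each gene list that rose (red, to the right) or fell (blue, to the left) at 300 s against 120 s, with the number tested in brackets and lists ordered by median change. The dashed lines mark 11.3% and 10.8%, the shares of all tested genes; ribosome assembly lists are at the top and trehalose and glycogen, with 62.5% lower, at the bottom.

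Nucleotide synthesis rose on the purine side. Among 35 genes of purine and one-carbon synthesis there were 23 risers and no faller (median 0.51). AAH1, adenine deaminase, had 420.4, 533 and 583 at 300 s, against 126, 111 and 101 at 120 s (log2 change 2.18 ± 0.17, adjusted p = 3.54e-07). IMD4, an inosine monophosphate dehydrogenase on the way to GTP with a close copy in the genome, had 308, 453 and 368 at 300 s, against 119, 105 and 86.7 at 120 s (log2 change 1.86 ± 0.18, adjusted p = 2.99e-06). MTD1, a dehydrogenase of one-carbon units, had 806, 919.9 and 927 at 300 s, against 285, 241 and 223 at 120 s (log2 change 1.83 ± 0.12, adjusted p = 6.62e-08). ADE4, the first enzyme of de novo purine synthesis, had 52.6, 69.1 and 67.4 at 300 s, against 15.6, 13.9 and 28.5 at 120 s (log2 change 1.77 ± 0.29, adjusted p = 3.84e-04), and ADE17, one of the last enzymes of that route, had 703, 701 and 761 at 300 s, against 418, 342 and 267 at 120 s (log2 change 1.10 ± 0.20, adjusted p = 8.93e-04). The groups were separated in each of these genes, which the call on the same arrays favours. Of 23 pyrimidine genes 6 rose and 1 fell (median 0.11). FUI1, the uridine permease, had 139, 138 and 101 at 300 s, against 47.2, 44.7 and 54.9 at 120 s (log2 change 1.35 ± 0.22, adjusted p = 3.20e-04), and URA7, the main CTP synthase, had 564, 800.5 and 850.5 at 300 s, against 344, 344 and 323 at 120 s (log2 change 1.11 ± 0.13, adjusted p = 2.98e-05). The faller was URA8, the other CTP synthase (-0.43), named after its value was seen. URK1, uridine kinase, changed by 1.12 ± 0.32 and lost the call without the 300 s array of pulse 3 or the 120 s array of pulse 2 or 3 (adjusted p from 0.0514 to 0.0777). URA6, uridylate kinase, changed by 1.12 ± 0.31 and lost it without the 300 s array of pulse 3 or the 120 s array of pulse 1 or 2 (adjusted p from 0.0703 to 0.0826).

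Of 62 amino acid biosynthesis genes 27 rose and 2 fell (median 0.36). The first and last enzymes of serine synthesis led: SER3 had 97.1, 72.3 and 74.0 at 300 s, against 19.7, 22.0 and 19.6 at 120 s (log2 change 1.98 ± 0.21, adjusted p = 7.16e-06), and SER2 had 419, 540.2 and 470.4 at 300 s, against 145, 162 and 124 at 120 s (log2 change 1.73 ± 0.14, adjusted p = 4.77e-07). ASN1, asparagine synthetase, had 739, 819 and 689 at 300 s, against 321, 395 and 293 at 120 s (log2 change 1.16 ± 0.26, adjusted p = 0.00419), and HIS3 had 408, 336 and 409 at 300 s, against 183, 165 and 166 at 120 s (log2 change 1.16 ± 0.14, adjusted p = 3.22e-05). The 2 fallers were LYS5 (-0.71) and BAT2 (-0.47), named after their values were seen. GCN4, the activator of many of these genes, had a value of 0.07 and no call (adjusted p = 0.743).

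In the methionine, sulfur and cysteine list 15 of 33 rose and 2 fell (median 0.41). MUP3, a low-affinity methionine permease, had 259, 298 and 336 at 300 s, against 72.8, 82.3 and 79.1 at 120 s (log2 change 1.92 ± 0.13, adjusted p = 9.37e-08). SAM1, S-adenosylmethionine synthetase, had 490.3, 649 and 558 at 300 s, against 289, 245 and 258 at 120 s (log2 change 1.09 ± 0.18, adjusted p = 3.93e-04), and MET31, a regulator of the pathway, had 121, 134 and 141 at 300 s, against 66.8, 55.6 and 62.7 at 120 s (log2 change 1.09 ± 0.19, adjusted p = 7.60e-04). MET3, ATP sulfurylase, had 887, 866 and 886 at 300 s, against 708, 616 and 669 at 120 s (log2 change 0.41 ± 0.11, adjusted p = 0.0115) and lost the call without the 120 s array of pulse 2 (adjusted p = 0.0606). SAM3, an S-adenosylmethionine permease measured by a probe set whose name marks it as not specific to a single transcript, passed the test (1.14 ± 0.36) although its arrays overlapped, 164, 291 and 436 at 300 s, against 101, 88.6 and 217 at 120 s, and it lost the call without the 300 s array of pulse 2 or 3 or the 120 s array of pulse 1 or 2 (adjusted p from 0.0873 to 0.148). The 15 risers of the list were 9 without the 120 s array of pulse 2 and 9 without the 300 s array of pulse 3. The fallers were MHT1 (-0.58) and MMP1 (-0.66), named after their values were seen, which serve S-methylmethionine use.

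Transport of amino acids and ammonium moved in both directions. Of 20 amino acid permeases 8 rose and 2 fell (median 0.45). HIP1, the histidine permease, had 284, 418 and 440.1 at 300 s, against 164, 128 and 137 at 120 s (log2 change 1.40 ± 0.16, adjusted p = 1.56e-05), and AGP1, a broad permease, had 264, 322 and 530.4 at 300 s, against 127, 158 and 173 at 120 s (log2 change 1.23 ± 0.25, adjusted p = 0.00192). PUT4, the proline permease, fell, with 534, 446 and 450.1 at 300 s, against 1576, 1037 and 1458 at 120 s (log2 change -1.49 ± 0.18, adjusted p = 2.22e-05), and the other faller was MMP1. Of 29 nitrogen catabolite and ammonium genes 7 rose (24.1%) and 4 fell (13.8%), with a median of 0.23. Of all tested genes 11.3% rose and 10.8% fell. GLN1, glutamine synthetase, had 2863, 2726 and 3699 at 300 s, against 1361, 1802 and 2051 at 120 s (log2 change 0.84 ± 0.19, adjusted p = 0.00429), and UGA3, an activator of genes of GABA use, had 180.1, 295 and 264 at 300 s, against 126, 138 and 120.3 at 120 s (log2 change 0.92 ± 0.16, adjusted p = 8.17e-04). MEP3, an ammonium permease, changed by 1.24 ± 0.32, with an adjusted p of 0.0593 without both pulse 1 arrays. CAR1, arginase, had 71.2, 66.3 and 81.2 at 300 s, against 163, 160.2 and 152 at 120 s (log2 change -1.12 ± 0.14, adjusted p = 3.90e-05). The other fallers were GDH2, UGA1 and PUT2 (-0.64, -0.63 and -0.50), enzymes of glutamate, GABA and proline breakdown named after their values were seen. The count of 4 was 2 without the 120 s array of pulse 2, 2 without the 300 s array of pulse 2 and 2 without the 300 s array of pulse 3.

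Exporters split too. Of 12 tested genes of polyamine and amino acid export and polyamine synthesis, 3 rose and 3 fell. These shares were 25% each, against 11.3% and 10.8% of all tested genes. Beside AQR1 and TPO2, TPO1 rose (0.68). TPO4, another polyamine exporter, had 69.8, 63.6 and 82.5 at 300 s, against 192, 179 and 176 at 120 s (log2 change -1.35 ± 0.13, adjusted p = 2.96e-06), and QDR1 and QDR2 fell by 0.78 and 0.62 on the log2 scale, QDR1 with signals of 12, 12 and 17.4 at 300 s, against 27.8, 19.1 and 23.7 at 120 s. QDR1 lost the call without the 120 s array of pulse 1 (adjusted p = 0.0579), when the 3 fallers were 1. With hybridization day as a block, which takes out that same array, the adjusted p of QDR1 was 0.0507. QDR1 also lost the call with the floor at 2 times its value (log2 change -0.07, adjusted p = 0.663). The values of the synthesis genes SPE1, SPE2, SPE3 and SPE4 lay between -0.19 and 0.36, with no call. TPO1 and QDR2 were named after their values were seen. TPO3 was too dim to test.

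Of 24 tested genes of glucose uptake and sensing 8 fell and 1 rose (median -0.40). The riser was STD1, a paralog of MTH1 that also acts in the sensing pathway, with 96.3, 89.9 and 103 at 300 s, against 34.1, 35.7 and 29.7 at 120 s (log2 change 1.54 ± 0.17, adjusted p = 1.43e-05), against the fall of MTH1 given above. MIG1, the repressor of genes for other carbon sources, had 32.3, 43.9 and 51.5 at 300 s, against 74.3, 107 and 90.5 at 120 s (log2 change -1.10 ± 0.20, adjusted p = 7.60e-04). The hexokinase gene HXK1 had 858, 861 and 759 at 300 s, against 1893, 2193 and 1985 at 120 s (log2 change -1.29 ± 0.12, adjusted p = 1.68e-06); HXK2, GLK1 and EMI2, all glucose kinases or their relatives, also fell (-0.74, -0.66 and -0.92), as did the hexose transporter gene HXT2 (-1.07), all 4 named after their values were seen. HXT1, a low-affinity transporter, had 28.0, 30.8 and 32.1 at 300 s, against 18.4, 21.1 and 18.8 at 120 s. It missed the threshold (log2 change 0.64 ± 0.22, adjusted p = 0.0518) although its groups were separated. It passed with the pulse number as a block (adjusted p = 0.0193) and without the steady-state array of pulse 1 (adjusted p = 0.0443). The signals of HXT1 were low, and with the floor at 2 times its value the log2 change was 0.33 (adjusted p = 0.095). HXT7, a high-affinity transporter, had 2369.9, 2369.7 and 2740.3 at 300 s, against 2594, 3042 and 3150.2 at 120 s and was not called (log2 change -0.23 ± 0.17, adjusted p = 0.371), and its probe set may also bind HXT6. Of 12 genes of the Snf1 kinase and its regulators 2 fell (16.7%, against 10.8% of all tested genes). They were SIP2, a beta subunit (-1.02 ± 0.27), and REG2, a phosphatase subunit (-0.68 ± 0.20). The call of REG2 was lost without the 300 s array of pulse 2 or 3 or the 120 s array of pulse 3 (adjusted p from 0.0873 to 0.11). That of SIP2 was lost without the 300 s array of pulse 2 or the 120 s array of pulse 3 (adjusted p from 0.0511 to 0.0515). SNF1 itself had a value of -0.72 with an adjusted p of 0.0593.

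Of 20 tested activators of respiration and of the use of nonfermentable carbon, HAP4 among them, 7 fell and 2 rose (median -0.35). USV1, a zinc-finger regulator, had 43.4, 36.1 and 24.1 at 300 s, against 183, 164 and 149 at 120 s (log2 change -2.30 ± 0.19, adjusted p = 5.35e-07). CAT8, the activator of gluconeogenic genes, had 27.03, 29.3 and 21.8 at 300 s, against 52.0, 41.5 and 45.2 at 120 s (log2 change -0.83 ± 0.18, adjusted p = 0.00389). ERT1, a regulator of gluconeogenesis and fermentation, rose on low signals, with 34.9, 25.2 and 33.2 at 300 s, against 12.1, 12.5 and 12 at 120 s (log2 change 1.34 ± 0.25, adjusted p = 0.00116), and with the floor at 2 times its value its adjusted p was 0.189. RPH1, a histone demethylase, rose by 0.88 on the log2 scale and lost the call without the 300 s array of pulse 2 or 3 or the 120 s array of pulse 3 (adjusted p from 0.0502 to 0.083). The 7 fallers were 4 without the 120 s array of pulse 2 and 4 without the 300 s array of pulse 3.

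Of 21 genes of gluconeogenesis, the glyoxylate cycle and C2 metabolism 9 fell and 2 rose (median -0.41). PCK1 and FBP1, the enzymes particular to gluconeogenesis, were not called. PCK1 had 174, 188 and 172 at 300 s, against 232, 214 and 269 at 120 s (log2 change -0.41 ± 0.15, adjusted p = 0.0647), with groups that were separated, and FBP1 had 199, 162 and 260.1 at 300 s, against 281, 219 and 322 at 120 s (log2 change -0.41 ± 0.19, adjusted p = 0.133), with groups that overlapped. FBP1 passed without the 300 s array of pulse 3 (adjusted p = 0.044), and PCK1 passed without the steady-state array of pulse 1 (adjusted p = 0.0144). With the pulse number as a block in the 6-array fit FBP1 passed (adjusted p = 0.0358) and PCK1 did not (adjusted p = 0.0775). With the array-number series as a block both passed (adjusted p = 0.045 and 0.0142), and PCK1 also passed with hybridization day as a block (0.0393) and with the 6 arrays alone (0.0445). ICL1, isocitrate lyase of the glyoxylate cycle, had 894, 747 and 834 at 300 s, against 1189, 1149 and 1196 at 120 s (log2 change -0.52 ± 0.14, adjusted p = 0.0136), and it lost the call without the 300 s array of pulse 2 (adjusted p = 0.0659). SFC1, the mitochondrial succinate and fumarate carrier, had 237, 186 and 162 at 300 s, against 403, 337 and 333 at 120 s (log2 change -0.89 ± 0.14, adjusted p = 2.42e-04). ALD6, the cytosolic acetaldehyde dehydrogenase, had 749, 704 and 789.7 at 300 s, against 1148, 1269.8 and 1472 at 120 s (log2 change -0.79 ± 0.15, adjusted p = 9.97e-04), and ICL2, a lyase of propionate breakdown, changed by -0.81 ± 0.14. ALD5, a mitochondrial aldehyde dehydrogenase, rose, with 463, 439.7 and 431 at 300 s, against 199.9, 183 and 212 at 120 s (log2 change 1.17 ± 0.16, adjusted p = 8.25e-05), as did CIT2, peroxisomal citrate synthase (0.75), named after its value was seen. In the GID ubiquitin ligase, which marks gluconeogenic enzymes for degradation, VID24 was the only riser among 11 genes. In that list 9.09% rose and 27.3% fell, against 11.3% and 10.8% of all tested genes. GID11 (-1.29 ± 0.20), UBC8, its conjugating enzyme (-1.06 ± 0.17), and GID7 (-0.78 ± 0.18) fell.

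Of 25 genes of glycolysis and ethanol formation 3 rose (12%, against 11.3% of all tested genes) and 1 fell, with a median of 0.12. The 3 risers were 1 without the 120 s array of pulse 1, without the 300 s array of pulse 2 and without both pulse 1 arrays. The regulators of glycolytic flux moved most and in opposite directions. PFK27 and PFK26 both make fructose 2,6-bisphosphate, an activator of glycolysis. PFK27 had 47.7, 60.6 and 61.6 at 300 s, against 12, 15.1 and 17.2 at 120 s (log2 change 1.94 ± 0.22, adjusted p = 1.30e-05; 1.23 with the floor at 2 times its value), and PFK26 had 81.9, 74.3 and 70.9 at 300 s, against 158, 157 and 165 at 120 s (log2 change -1.08 ± 0.19, adjusted p = 5.90e-04). PDC1, the main pyruvate decarboxylase, had 1516, 1613 and 1935 at 300 s, against 1116, 1201 and 1349 at 120 s (log2 change 0.46 ± 0.14, adjusted p = 0.0288), and PDC6, a minor form, changed by 0.70 ± 0.20. PDC1 lost the call without the 300 s array of pulse 2 or 3 or the 120 s array of pulse 1 or 2 (adjusted p from 0.0567 to 0.122). PDC6 lost it without the 300 s array of pulse 1 or 2 or the 120 s array of pulse 1 or 3 (adjusted p from 0.0635 to 0.0741). In glycerol metabolism the enzymes of synthesis and of use split. GPP2 and GPP1, the glycerol phosphatases, both rose. GPP2 had 229.7, 523 and 355 at 300 s, against 69.9, 96.0 and 73.5 at 120 s (log2 change 2.15 ± 0.24, adjusted p = 1.10e-05), and GPP1 had 1046, 1311 and 1634 at 300 s, against 518, 654 and 764 at 120 s (log2 change 1.04 ± 0.19, adjusted p = 8.25e-04). GPD2, a glycerol phosphate dehydrogenase, had 498, 591 and 594 at 300 s, against 182, 246 and 288 at 120 s (log2 change 1.25 ± 0.15, adjusted p = 2.78e-05), whereas its isoform GPD1 fell (-0.63). STL1, the glycerol importer, had 193, 182 and 175 at 300 s, against 550.3, 591 and 536 at 120 s (log2 change -1.61 ± 0.12, adjusted p = 1.51e-07). GUT1 and GUT2, which begin glycerol use, and the channel FPS1 also fell (-0.88, -0.40 and -0.49). Of these 5 fallers 3 passed without the 120 s array of pulse 2, without the 300 s array of pulse 2, and without the 120 s array of pulse 3. The genes given without a standard error in this paragraph were named after their values were seen.

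Storage carbohydrate had the largest share of fallers of any list, 15 of 24 trehalose and glycogen genes (62.5%) against 10.8% of all tested genes, with a median of -0.63 and no riser. GLC3, the glycogen branching enzyme, had 112, 93.3 and 79.4 at 300 s, against 359, 339.6 and 371 at 120 s (log2 change -1.92 ± 0.16, adjusted p = 4.89e-07). GLG1, glycogenin, which primes glycogen, had 26.8, 26.99 and 21.0 at 300 s, against 86.0, 83.5 and 73.1 at 120 s (log2 change -1.70 ± 0.16, adjusted p = 2.18e-06). GAC1, a targeting subunit of the phosphatase that activates glycogen synthase, had 39.3, 37.1 and 74.1 at 300 s, against 173, 159 and 128 at 120 s (log2 change -1.67 ± 0.27, adjusted p = 3.53e-04). The highest 300 s array of GAC1 was that of pulse 3 and lay below the lowest 120 s array. NTH2, a trehalase, had 62.7, 56.5 and 39.2 at 300 s, against 153, 139 and 108 at 120 s (log2 change -1.35 ± 0.20, adjusted p = 1.95e-04). Genes of synthesis and of breakdown fell, since the list also held falls of TPS1 (-0.71), of trehalose synthesis, and ATH1 (-1.26), the acid trehalase, both named after their values were seen. NTH1, the main neutral trehalase, had a value of 0.25 and no call.

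In the Ras, cyclic AMP and protein kinase A list 4 of 20 rose (20%) and 2 fell (10%), with a median of -0.17. Of all tested genes 11.3% rose and 10.8% fell. With the pulse number as a block in the 6-array fit 2 rose, and RAS1 and RGS2 lost the call (adjusted p = 0.0513 and 0.0531). PDE2, given above, and PDE1 (0.61), the enzymes that break down cyclic AMP, both rose. RAS1 had 185, 287 and 294 at 300 s, against 143, 131 and 111 at 120 s (log2 change 0.97 ± 0.22, adjusted p = 0.00429). RGS2, a regulator of the glucose receptor's G protein, had 15.5, 20.8 and 28.5 at 300 s and the floor on every 120 s array, at least 1.75-fold higher. With the floor at 2 times its value RGS2 was too dim to test. GPB2, an inhibitor in the same branch, and TPK2, a catalytic subunit, fell (-0.80 and -0.64). The 300 s array of pulse 2 was at the floor for GPB2, and with the floor at 2 times its value its adjusted p was 0.705. PDE1 and TPK2 were named after their values were seen.

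Fatty acid oxidation and peroxisomes had 16 fallers of 31 and no riser (median -0.51). POX1, the acyl-CoA oxidase that starts beta-oxidation, had 136, 122 and 104 at 300 s, against 365, 372 and 339.5 at 120 s (log2 change -1.58 ± 0.13, adjusted p = 5.90e-07). PXA1, a subunit of the importer of fatty acids into the peroxisome, had 57.8, 59.9 and 43.5 at 300 s, against 161, 160.4 and 144 at 120 s (log2 change -1.54 ± 0.16, adjusted p = 4.97e-06). PEX5, the receptor for peroxisomal proteins, had 30.2, 18.3 and 23.9 at 300 s, against 53.1, 52.0 and 41.7 at 120 s (log2 change -1.04 ± 0.24, adjusted p = 0.00579), and ECI1, an isomerase for unsaturated acids, had 392.2, 238 and 282 at 300 s, against 689, 561 and 489.7 at 120 s (log2 change -0.95 ± 0.17, adjusted p = 6.52e-04). Of the 31 values 31 were below 0, and they ran from -1.58 to -0.06.

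Of 22 tricarboxylic acid cycle genes 8 fell and 1 rose (median -0.33). MDH1, mitochondrial malate dehydrogenase, had 788, 929 and 771 at 300 s, against 1590.5, 1699 and 1652 at 120 s (log2 change -0.99 ± 0.13, adjusted p = 7.60e-05), SDH1, of succinate dehydrogenase, had 373, 414 and 455 at 300 s, against 648, 593 and 589 at 120 s (log2 change -0.56 ± 0.12, adjusted p = 0.00284), and KGD2, of alpha-ketoglutarate dehydrogenase, changed by -0.65 ± 0.17 and lost the call without the 300 s array of pulse 3 (adjusted p = 0.0582). The riser was PYC1, pyruvate carboxylase (0.47), named after its value was seen. The 8 fallers were 4 without the 120 s array of pulse 1, 4 without that of pulse 2, 4 without the 300 s array of pulse 2, 5 without the 120 s array of pulse 3 and 3 without both pulse 1 arrays. Of 41 genes of the respiratory chain and ATP synthase 8 fell, 19.5% against 10.8% of all tested genes (median -0.15). None of the 8 encodes a subunit of the cytochrome bc1 complex or of cytochrome oxidase. Beside TMA10, its relative STF2 had 693, 515 and 407 at 300 s, against 1350.1, 1379 and 1276 at 120 s (log2 change -1.34 ± 0.16, adjusted p = 2.97e-05). NDE2, an external NADH dehydrogenase, had 137, 174 and 160.1 at 300 s, against 299.9, 279.6 and 301 at 120 s (log2 change -0.91 ± 0.16, adjusted p = 7.06e-04), and NDI1, the internal NADH dehydrogenase, had 534, 434 and 512 at 300 s, against 811, 688 and 691 at 120 s (log2 change -0.57 ± 0.12, adjusted p = 0.00275). The other 4, named after their values were seen, were STF1, NDE1, ATP17 and CYC1 (-0.53, -0.42, -0.34 and -0.32). The count of 8 was 4 without the 120 s array of pulse 1, 5 without that of pulse 2, 5 without that of pulse 3 and 4 without the 300 s array of pulse 3.

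Mitochondrial carriers moved both ways, 8 of 33 up (24.2%) and 6 down (18.2%), against 11.3% and 10.8% of all tested genes. MAE1, the malic enzyme that makes pyruvate from malate in mitochondria, had 810.2, 1077 and 1584 at 300 s, against 205, 266 and 284 at 120 s (log2 change 2.16 ± 0.26, adjusted p = 3.15e-05). YMC2, an inner-membrane carrier, had 139, 172 and 132 at 300 s, against 51.9, 59.5 and 46.4 at 120 s (log2 change 1.49 ± 0.18, adjusted p = 2.49e-05), and POR2, a minor porin, had 95.7, 123 and 113 at 300 s, against 35.6, 39.2 and 39.7 at 120 s (log2 change 1.53 ± 0.22, adjusted p = 1.53e-04). The pyruvate carrier subunits differed: MPC3 fell as given above, MPC1 fell by 0.83 on the log2 scale, and MPC2 had a value of 0.37 and no call (adjusted p = 0.0618); MPC1 and MPC2 were named after their values were seen.

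Mitochondrial ribosomal proteins fell in part. Of 71 tested 18 fell and none rose (median -0.32), and values ran from -1.60 to 0.03. The 300 s arrays lay wholly below the 120 s arrays in 37 of them, against 22% of all tested genes. MRP20, of the large subunit, had 20.0, 33.6 and 39.7 at 300 s, against 78.6, 87.5 and 109 at 120 s (log2 change -1.60 ± 0.24, adjusted p = 2.09e-04). MRPL28 had 92.2, 77.8 and 90.1 at 300 s, against 144, 127 and 160.3 at 120 s (log2 change -0.73 ± 0.16, adjusted p = 0.00329), MRPL6 had 103, 86.9 and 91.0 at 300 s, against 168, 132 and 166 at 120 s (log2 change -0.72 ± 0.14, adjusted p = 0.00166), and PET123, of the small subunit, changed by -0.73 ± 0.20 and lost the call without the 300 s array of pulse 2 or the 120 s array of pulse 3 (adjusted p from 0.0777 to 0.0815). Most members moved by less than these. The 18 fallers were 9 without the 120 s array of pulse 1, 9 without the 300 s array of pulse 2, 10 without the 120 s array of pulse 3 and 9 without both pulse 1 arrays.

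General stress genes had 10 fallers and 1 riser of 35 (median -0.35). MRK1, a kinase of the GSK-3 family, had 41.6, 24.6 and 29.0 at 300 s, against 117, 120.1 and 114 at 120 s (log2 change -1.92 ± 0.22, adjusted p = 1.43e-05). XBP1, a repressor induced by stress, changed by -1.22 ± 0.33 and RTN2 by -1.07 ± 0.22. XBP1 lost the call without the 300 s array of pulse 2 or the 120 s array of pulse 3 (adjusted p from 0.0597 to 0.0767). HSP12, a strongly stress-induced membrane protein gene, had 3378, 3795 and 4421 at 300 s, against 3647, 4374 and 4563 at 120 s and was not called (log2 change -0.12 ± 0.18, adjusted p = 0.688). The riser was YGP1, a secreted glycoprotein (0.42), named after its value was seen. The list's 10 fallers were 17 with the pulse number as a block, 16 with hybridization day as a block and 17 with the array-number series as a block.

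Of 36 heat shock proteins and chaperones 2 rose and 2 fell (5.56% each, below the shares of all tested genes), with a median of 0.03. PAC10, of prefoldin, changed by 0.94 ± 0.25, and HSF1, the heat shock regulator, by -0.72 ± 0.22. CCT2, of the TRiC chaperonin, and FES1, a nucleotide exchange factor, changed by 0.43 ± 0.15 and -0.51 ± 0.16. Each of the 4 calls was lost when any 1 of 2 or more arrays was left out. CCT2 and HSF1 lost the call with quantile normalization too. With hybridization day as a block, which takes out the 120 s array of pulse 1, both also lost it. PAC10 lost the call without the 300 s array of pulse 3 or the 120 s array of pulse 1 (adjusted p from 0.0668 to 0.067), and HSF1 without the 300 s array of pulse 1 or 3 or the 120 s array of pulse 1 or 2 (adjusted p from 0.0602 to 0.0996). CCT2 lost it without the 300 s array of pulse 1 or 3, the 120 s array of pulse 2 or 3, the steady-state array of pulse 2 or 3 or the 60 s array of pulse 2 or 3 (adjusted p from 0.0514 to 0.156), and FES1 without the 300 s array of pulse 1 or 2 or the 120 s array of pulse 2 or 3 (adjusted p from 0.0706 to 0.165). Of 35 proteasome genes only RPN4, their transcriptional activator, was called, with 318, 282 and 255 at 300 s, against 407, 428 and 463 at 120 s (log2 change -0.60 ± 0.14, adjusted p = 0.00502). The subunit RPN12 had 183, 211 and 135 at 300 s, against 264, 272 and 201 at 120 s and was not called (adjusted p = 0.0686). It passed with the pulse number as a block (adjusted p = 0.0199) and without the 300 s array of pulse 2, the 120 s array of pulse 3 or the 30 s array of pulse 2 or 3 (adjusted p from 0.0399 to 0.0473).

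Of 36 tested genes of autophagy and vacuolar proteases 9 fell and none rose (median -0.32). ATG39, a receptor for autophagy of the nucleus, had 134, 124 and 109 at 300 s, against 296, 266 and 233 at 120 s (log2 change -1.11 ± 0.16, adjusted p = 1.14e-04), and ATG7, the activating enzyme of the conjugation systems, had 41.1, 31.5 and 31.7 at 300 s, against 64.9, 81.5 and 53.3 at 120 s (log2 change -0.93 ± 0.19, adjusted p = 0.00265). ATG14 and ATG13, which act at initiation, changed by -0.92 ± 0.23 and -0.91 ± 0.24, both from low signals. With the floor at 2 times its value ATG14 had an adjusted p of 0.252, and ATG13 lost the call without the 300 s array of pulse 1 or the 120 s array of pulse 2 (adjusted p from 0.0546 to 0.0653). The 9 fallers were 4 without the 120 s array of pulse 2, 5 without that of pulse 3 and 4 without both pulse 1 arrays. In the mRNA decay list 6.06% of the tested genes fell, below the 10.8% of all tested genes. Of 33 tested mRNA decay genes XRN1, the cytoplasmic 5′ exonuclease, fell (log2 change -0.45 ± 0.11, adjusted p = 0.00711), as did the decapping enzyme DCP2 (log2 change -0.49 ± 0.17, adjusted p = 0.0495), whose call was lost without the 300 s array of pulse 2 or 3, the 120 s array of pulse 1, 2 or 3, the steady-state array of pulse 3, the 30 s array of pulse 2 or 3 or the 60 s array of pulse 2 or 3 (adjusted p from 0.0506 to 0.191).

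CLN3, the G1 cyclin that sets the timing of the start of the cell cycle, had 134, 221 and 197 at 300 s, against 55.95, 67.7 and 77.1 at 120 s (log2 change 1.44 ± 0.26, adjusted p = 7.99e-04). It was the only called gene of 19 in its list (5.26% up, against 11.3% of all tested genes). PCL1, another G1 cyclin, had 178, 167 and 143 at 300 s, against 112, 132 and 115 at 120 s and was not called (log2 change 0.44 ± 0.17, adjusted p = 0.0779). Of 31 genes of later phases 2 rose (6.45%, against 11.3% of all tested genes) and 6 fell (19.4%, against 10.8%). CDC6, which loads the replicative helicase, had 23.9, 46.1 and 31.9 at 300 s and the floor on every 120 s array, at least 2.73-fold higher (adjusted p = 7.55e-04), and with the floor at 2 times its value the adjusted p was 0.0623. CLB1, a mitotic cyclin, changed by 0.73 ± 0.21, and lost the call without the 300 s array of pulse 1 or 2 or the 120 s array of pulse 2 or 3 (adjusted p from 0.0605 to 0.0872). POL1, the catalytic subunit of DNA polymerase alpha, had 107, 112 and 105 at 300 s, against 159.6, 172 and 172 at 120 s (log2 change -0.63 ± 0.16, adjusted p = 0.00876). The 6 fallers were 2 or 3 without any 1 of the 120 s arrays or without the 300 s arrays of pulse 1 or 2, and 1 without both pulse 1 arrays.

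Sterol and lipid synthesis had few calls, 2 up (5.26%) and 3 down (7.89%) of 38 (median -0.01), below the shares of all tested genes. The fallers were ERG28 (-0.74 ± 0.11), ECM22 (-0.56 ± 0.13) and PSD1 (-0.50 ± 0.14). The risers were ELO3 (0.53 ± 0.11) and ERG1 (0.36), the last named after its value was seen. PSD1 lost the call without the 300 s array of pulse 1 or 3 or the 120 s array of pulse 1 or 2 (adjusted p from 0.051 to 0.0772). Of 18 tested genes of phosphate, galactose and sucrose use 5 fell. SUC2, invertase, had 339, 285 and 295 at 300 s, against 716, 791 and 728 at 120 s (log2 change -1.28 ± 0.11, adjusted p = 9.86e-07), MAL31, a maltose permease, had 194, 189 and 192 at 300 s, against 368, 406 and 393 at 120 s (log2 change -1.02 ± 0.14, adjusted p = 1.01e-04), and the galactose regulators GAL4 and GAL3 changed by -1.25 ± 0.18 and -1.15 ± 0.17. GAL4 had 14.6, 13.2 and 16.1 at 300 s, against 32.3, 34.9 and 36.8 at 120 s, near the floor, and with the floor at 2 times its value its change was -0.53. The SUC2 and MAL31 probe sets are of a kind that can bind related family members. PHO90 rose (1.00) and PHO8 fell (-0.65), both phosphate genes named after their values were seen.

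CEN.PK 113-7D is a haploid of mating type a, and of the markers of that type the levels of MFA1 and STE2 are given here. The pheromone gene MFA1 averaged 3459 ± 1152 at 300 s and 3451 ± 344 at 120 s (SD, n = 3 each), and the receptor STE2 223 ± 37.5 at 300 s and 179 ± 15.3 at 120 s. Of 15 genes of a cells and pheromone response 1 fell (6.67%, against 10.8% of all tested genes) and none rose. It was AGA2, an agglutinin subunit, with 199.7, 228 and 207 at 300 s, against 311, 345 and 304 at 120 s (log2 change -0.60 ± 0.13, adjusted p = 0.00282). Of 4 alpha-cell genes none was called in the main comparison. MF(ALPHA)2 stood at the floor on all 300 s arrays, while MF(ALPHA)1 averaged 339 ± 45.6 at 300 s and 251 ± 57.3 at 120 s and SAG1 89.0 ± 14.4 at 300 s and 121 ± 12.1 at 120 s. MF(ALPHA)1 passed, higher at 300 s, without the 120 s array of pulse 1 (adjusted p = 0.0346), with hybridization day as a block (adjusted p = 0.0354) and without both pulse 1 arrays (0.0203). All of these settings take the 120 s array of pulse 1 out of the comparison, so they are no separate results. SAG1 passed, lower at 300 s, without the 300 s array of pulse 2 or the steady-state array of pulse 2 (adjusted p from 0.0399 to 0.0443). The part of alpha-type transcripts or of binding by other transcripts in these 2 signals was not tested. Of 17 sporulation genes 5 were too dim to test, 1 fell (8.33% of those tested, against 10.8% of all tested genes) and none rose. The faller was RIM4, with 135, 143 and 129 at 300 s, against 244, 292 and 246 at 120 s (log2 change -0.94 ± 0.15, adjusted p = 2.50e-04), while IME2, the kinase of entry into meiosis, stood at the floor on all 6 arrays.

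**Figure D4:**
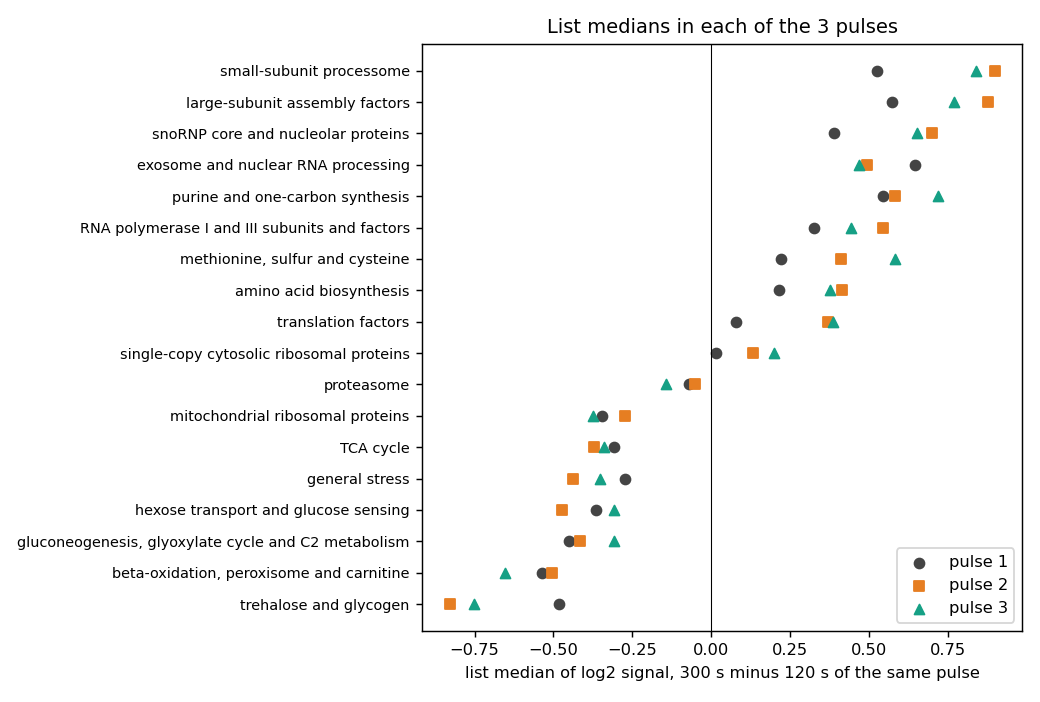
Median log2 change of 18 gene lists, 300 s minus 120 s, computed within pulse 1 (circles), pulse 2 (squares) and pulse 3 (triangles). Assembly factor, purine and amino acid lists lie right of 0 in every pulse and trehalose, beta-oxidation and gluconeogenesis lists left of 0 in every pulse.

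Taken pulse by pulse, the small-subunit processome had a median of 0.52, 0.90 and 0.84 in pulses 1, 2 and 3, and the large-subunit factors had 0.57, 0.88 and 0.77. Trehalose and glycogen had -0.48, -0.83 and -0.75, and beta-oxidation -0.54, -0.50 and -0.65. Mitochondrial ribosomal proteins had -0.34, -0.27 and -0.38. Amino acid biosynthesis had 0.21, 0.42 and 0.38, and the methionine list 0.22, 0.41 and 0.58. The pulse 1 medians were the smallest of the 3 in the assembly, trehalose, amino acid and methionine lists and not in the beta-oxidation and mitochondrial ribosome lists. Pulse 1 is also the pulse whose 300 s and 120 s arrays were of different days; its part in this was not tested.

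The single 210 s array shows how far pulse 1 had moved at that time. Shares are the change at 210 s as a percent of the pulse 1 change at 300 s, for genes chosen on their change at 300 s, and are descriptions of 3 arrays; those of genes at the floor at 120 s depend on the floor. The 120 s and 210 s arrays of pulse 1 were of the same day and the 300 s array of another, so day and time cannot be told apart in the last step. Among the 210 genes that rose at least 2-fold the median share was 27.2%, and among the 122 that fell at least 2-fold it was 38.5%. At 210 s, 23 of the rising and 17 of the falling genes had already moved 2-fold. The 88 assembly factors that rose had a median share of 10.8%, and 36 of them were below their 120 s signal. The 27 amino acid biosynthesis risers had a median of 45.7%, the 8 falling genes of glucose uptake and sensing 43.2%, and the 15 risers of the methionine list -21.9%.

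Single genes spanned this range. NOG2 had a signal of 292 at 120 s, 285 at 210 s and 563 at 300 s in pulse 1, and IFH1 had 46.4, 38.7 and 133 at those times. RRN11 was at the floor at 120 s and 210 s and at 49.2 at 300 s. These 3 genes had no increase at 210 s. AQR1 stood at the floor at 120 s, 51.7 at 210 s and 234 at 300 s, and TPO2 at 35.6, 190.5 and 693. HAP4 went through 366, 156 and 50.7, and TMA10 through 1576, 561 and 166. ASN1 had 321 at 120 s, 749 at 210 s and 739 at 300 s, ALD5 199.9, 437 and 463, and MNC1 489, 1131 and 1094. The last 3 were thus at 210 s already close to their 300 s signal.

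**Figure D5:**
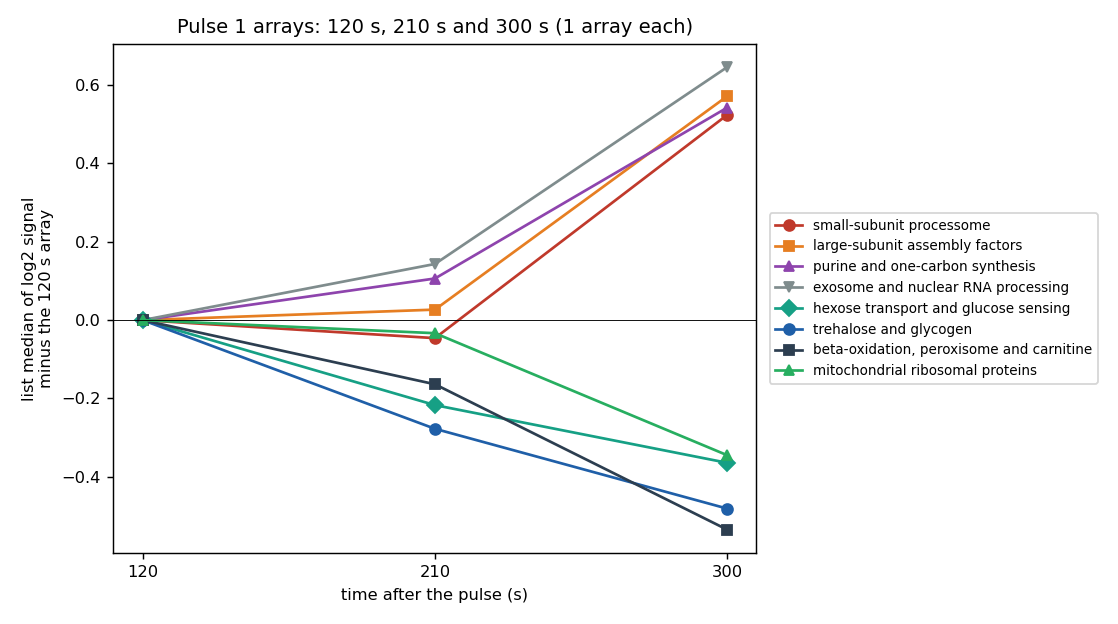
Median log2 signal of 8 gene lists on the 120 s, 210 s and 300 s arrays of pulse 1 (1 array each), relative to the 120 s array. The medians of the assembly lists lie near 0 at 210 s (-0.05 and 0.03) and at 0.52 and 0.57 at 300 s, while trehalose and glycogen lies at -0.28 at 210 s and -0.48 at 300 s.

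MNC1, CPP2 and ICY1 were chosen for description because earlier results of these data had shown them to respond soon after the pulse. MNC1 had 1094, 624 and 615 at 300 s, against 489, 381 and 355 at 120 s (log2 change 0.89 ± 0.20, adjusted p = 0.00519), and with only the 6 arrays compared in the fit its adjusted p was 0.0538. CPP2 had 647, 577 and 649 at 300 s, against 556, 503 and 458 at 120 s (log2 change 0.31 ± 0.13, adjusted p = 0.104), and ICY1 had 209.6, 273 and 188 at 300 s, against 218, 268 and 249 at 120 s (log2 change -0.15 ± 0.16, adjusted p = 0.552). Neither CPP2 nor ICY1 was called.

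Signals before the pulse and at 330 s are set beside these for scale and were not compared here. At steady state TPO2 had 22.0, 36.5 and 43.8, HAP4 467, 414 and 333, MPC3 2519, 2118 and 2642, NOG2 246, 231 and 254 and MAE1 83.5, 97.4 and 175. On the 330 s arrays of pulses 1 and 2 TPO2 had 1276 and 1339.9, HAP4 45.8 and 52.5, MPC3 186 and 263, NOG2 876 and 1181 and MAE1 752 and 1091. Over the 612 risers the median steady-state signal was 106.8, the median at 120 s 101.0 and the median at 300 s 185.1. Over the 583 fallers these medians were 196.7, 181.6 and 104.3.

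The lists held 277 of the 612 risers and 164 of the 583 fallers. Outside them 335 of 4150 tested genes rose (8.07%) and 419 fell (10.1%). Genes with no symbol beyond their systematic name were 5.88% of risers, 7.03% of fallers and 8.34% of all tested genes.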

How the data were processed

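Total RNA from each culture was hybridized to an Affymetrix YG_S98 array. The authors deposited 1 linear intensity per probe set and array; GCOS is named in the submitters' processing notes, and no version or setting of it is given in the sources used here. Each of the 16 arrays was rescaled so that its mean, trimmed by 2% at each end, was 150. A floor of 12, which is 8% of the scaled mean, was applied before the log2 step.

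Of 9335 probe sets, 60 were controls, 6504 had 1 gene in the platform annotation, 328 had several and 2443 had none. Gene names were updated through a RefSeq table. Where a gene had several probe sets, the one brightest on average (mean log2) was kept. A gene had to exceed the floor on at least 2 arrays, which 246 of 5656 did not, so 5410 were tested.

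A means model was fitted with limma 3.58.1 (R 4.3.3; lmFit and eBayes with a variance trend) to the 15 arrays of the 6 replicated times, with 9 residual and 6.31 prior degrees of freedom, and the contrast was 300 s minus 120 s. A gene was called at an adjusted p under 0.05 (Benjamini-Hochberg over all genes tested). The scripts were tested on simulated data.

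Same-numbered pulses were checked for pairing. The deviations from the group means of 300 s and 120 s arrays correlated by 0.12, 0.21 and 0.28 within pulses 1, 2 and 3. The numbers were therefore taken to pair the arrays, and a fit with the pulse number as a block was an alternative. Same-numbered arrays at these times also shared an array-number series, and in pulses 2 and 3 the day. In these correlations a shared culture cannot be told apart from a shared series or day.

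The rule for naming took the 12 called genes with the largest increase and the 12 with the largest decrease among those whose arrays did not overlap. It also took up to 4 called members of each of 45 gene lists. Where fewer than 2 were called, it took the 2 members with the largest absolute change. To these it added 15 fixed genes, among them PCK1, HXT7, CLN3 and HSP12. Of the genes taken, TRM5, TIF5, CDC9 and PDX1, which were called, and ASG7 and SSP1, which were not, are not described in the text. Each of these called genes lost the call in at least 1 alternative. Genes named beyond this rule were chosen after their values were seen. The comparison, the lists and the fixed genes were chosen with earlier results of these data known. Probe sets of HXT7, MFA1, MAL31, SAM3, SUC2 and UBC8 have names that mark possible binding of related transcripts. The name of the TPO2 probe set carries another mark, that of a set short of unique probes. The alternatives were other scalings, floors, filters, probe-set rules, variance models and blocks, and leaving out arrays.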

Additional observations from a re-analysis of the deposited data

Results flagged for a closer look

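Probe sets outside the gene-level comparison held signal that differed between 300 s and 120 s. When all probe sets were fitted singly, 12 of 292 tested probe sets with several annotated genes were called (4.11%), 3 of them higher at 300 s and 9 lower. Of 1334 tested probe sets with no gene in the annotation, 59 were called (4.42%), 22 higher and 37 lower. In the same fit 18.4% of the 5980 tested probe sets with 1 gene were called. The median signal at 120 s was 356 for probe sets with several genes, 20.5 for those with no gene and 89.4 for those with 1 gene.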

How the results depend on the processing

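Of 172 called genes that the naming rule took, 128 kept the call in every one of up to 30 alternatives. The 187 genes that the rule took are the named genes counted here, and 0 of them reversed a called direction. The count of 1195 genes was 713 at an adjusted p under 0.01 (402 higher, 311 lower) and 332 with at least a 2-fold change (210 higher, 122 lower). Leaving out each array in turn gave 892 to 1271 genes, with 471 to 641 higher and 421 to 632 lower; the lowest counts came without the 120 s array of pulse 3, and fits without a 30 s, 60 s or 330 s array assume that the lone array left varies like the others. The pulse number as a replicate block gave 690 higher and 750 lower (1440 in all), and with the 6 arrays alone 543 and 542; beside RPL39, RPN12 and HXT1 the 15-array block changed no call of a named gene, and the 6-array block lost 13 calls of named genes (adjusted p from 0.0513 to 0.11) and gained 3 (FBP1, HXT1 and RPN12). Hybridization day as a block gave 655 and 643, the array-number series as a block 723 and 821, and the 6 arrays without a block 569 and 552. Median centring gave 619 and 505, quantile normalization 648 and 596, and a stricter filter on dim genes 501 and 555. With quantile normalization HXT7 passed (adjusted p = 0.0263). Values at the floor, 12 risers with all 120 s arrays there and 2 fallers with all 300 s arrays there, give only bounds.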

Other observations

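Genes outside the lists and the naming rule were also called, and those given here were chosen after their values were seen. KTR2, a mannosyltransferase of the Golgi, had 363, 408 and 387 at 300 s, against 83.6, 81.6 and 78.5 at 120 s (log2 change 2.25 ± 0.15, adjusted p = 5.44e-08). FSH1, a serine hydrolase, had 727, 1184 and 1216 at 300 s, against 227, 281 and 238 at 120 s (log2 change 2.04 ± 0.22, adjusted p = 7.62e-06). HMT1, the main arginine methyltransferase, had 597, 687 and 627 at 300 s, against 152, 172 and 156 at 120 s (log2 change 1.99 ± 0.14, adjusted p = 9.27e-08). In each of these 3 genes the groups were separated, which the call on the same arrays favours. UTR2, a cell wall glycosidase, rose by 1.90 on the log2 scale, ERO1, the oxidase of protein folding in the endoplasmic reticulum, by 1.55, and PRP43, a helicase shared by splicing and ribosome assembly, by 1.48. BAS1, an activator of purine and histidine genes, had 53.0, 77.2 and 60.5 at 300 s, against 23.4, 25.3 and 26.2 at 120 s (log2 change 1.33 ± 0.20, adjusted p = 2.20e-04). ANB1, the hypoxic form of translation factor eIF5A, rose too (log2 change 1.44 ± 0.23, adjusted p = 3.53e-04). BUD20, REX4, SDO1 and TSR2, which act in ribosome assembly and were in no list, rose by 1.95, 1.42, 1.38 and 1.34 on that scale.

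Among the decreases, SUT1, a regulator of sterol uptake, had 21.8, 25.4 and 20.5 at 300 s, against 69.1, 76.6 and 71.4 at 120 s (log2 change -1.69 ± 0.17, adjusted p = 5.64e-06), and TEC1, an activator of filamentation genes, had 141, 178 and 156 at 300 s, against 462, 440.0 and 438 at 120 s (log2 change -1.50 ± 0.14, adjusted p = 1.58e-06). VHS1, a protein kinase, had 15.8, 12 and 12 at 300 s, against 33.9, 43.5 and 35.6 at 120 s (log2 change -1.51 ± 0.25, adjusted p = 4.75e-04). Its 300 s arrays of pulses 2 and 3 were at the floor, so its change depends on the floor. All 3 genes had separated groups, which the call on the same arrays favours. YGR067C, a zinc-finger gene, fell by 2.32, SPG1, needed in stationary phase, by 1.71, and NNK1, a protein kinase, by 1.59 on the log2 scale. AQY3, an aquaporin-like channel, had 56.5, 49.8 and 70.7 at 300 s, against 179, 140.1 and 187 at 120 s (log2 change -1.52 ± 0.17, adjusted p = 1.56e-05).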
